A study of Homo sapiens with 18 samples.

Results

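The RNA bound by the stress granule protein TIAR was compared between arsenite-treated and vehicle-treated cells of U251-MG, an established line grown from a human astrocytoma, on 6 exon arrays. Among 14232 genes, 875 rose (6.15% of those tested) and 1018 fell (7.15%) in the TIAR immunoprecipitate within 30 min of arsenite. EGR1 rose most. Called genes of the secretory pathway, the extracellular matrix, tRNA charging and splicing were mostly higher, while called genes of chromatin regulation, zinc finger proteins and ubiquitin ligation were mostly lower. Genes of these lower groups that were called in input were mostly lower there too. The share of ZNF genes called lower in TIAR (9.81%) was near that of all genes. The members are all 22011 transcript clusters of the deposited table, read on the 3 arrays titled Tial Stress and the 3 titled Tial Non Stress, of 18 arrays in the series. The stressed cells received 500 µM arsenite and the control cells DMSO, and both were harvested after 30 min. RNA immunoprecipitation (RIP) recovers a protein with the RNA attached to it. TIAR is encoded by TIAL1, which gives the arrays their title. The other 12 arrays are input RNA and RIPs of G3BP1, a scaffold of stress granules, with 3 stressed and 3 unstressed arrays of each, and are used here only beside the TIAR values. All groups are 1 cell line, no RIP with a control antibody was analysed here, and a RIP array shows what share of the recovered RNA each transcript made up, not how much RNA was recovered.

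Arsenite is an oxidative stressor that leads to phosphorylation of the initiation factor eIF2 and so stops most translation. Untranslated mRNAs then gather with RNA-binding proteins in cytoplasmic stress granules, in which TIAR and its relative TIA1 are classic components. TIAR recognises U-rich and AU-rich RNA through its RNA recognition motifs and is known as a repressor of translation. mRNAs of membrane and secreted proteins are translated at the endoplasmic reticulum (ER), which makes the secretory groups described below a natural class of their own.

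The 6 TIAR arrays were alike in scale and closely correlated. Their median log2 signals ran from 7.75 to 7.80 and their upper quartiles from 9.42 to 9.59. Mean Pearson correlations of the log2 values were 0.993 to 0.994 with arrays of the same group and 0.986 to 0.988 with arrays of the other. The value tested is the log2 difference, stressed minus unstressed, with the standard error (SE) of a limma fit over all 18 arrays, and a gene is called at an adjusted p under 0.05. The smallest called change was 0.22 on the log2 scale. Groups of 3 arrays did not overlap for 2106 genes with all stressed arrays higher (14.8%) and 2689 with all lower (18.9%). Of the called genes, 874 of the 875 increases and 1016 of the 1018 decreases were among them. Arrays that lie apart in a called gene therefore add little to its call. Replicate 1 of stressed input and replicate 3 of the unstressed G3BP1 RIP stand apart from their groups. They enter the input and G3BP1 changes, which are given with both arrays included. Their upper quartiles were 9.17, against 9.54 and 9.57 in stressed input, and 9.45, against 9.94 and 9.92 in unstressed G3BP1. Their part in the input and G3BP1 counts and medians was not tested. The TIAR changes do not contain them. Both widen the spread that all groups share, so the counts of genes called in TIAR were larger without them. Counts of list members are therefore given with their value without both arrays where that moved them by over 1.5 times. They are to be read beside the shares of all genes called higher and lower. These were 6.15% and 7.15% in TIAR, 2.08% and 13.5% in input, and 11.9% and 4.12% in the G3BP1 RIP. They include genes of low signal, in which fewer changes are called. Among 7710 genes with a mean TIAR signal above the array median, the brighter genes, the TIAR shares were larger in most classes of gene span. They ran from 7.57% to 12.4% higher and from 6.15% to 22.2% lower. No share matched to the signal of a list was computed.

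**Figure D1:**
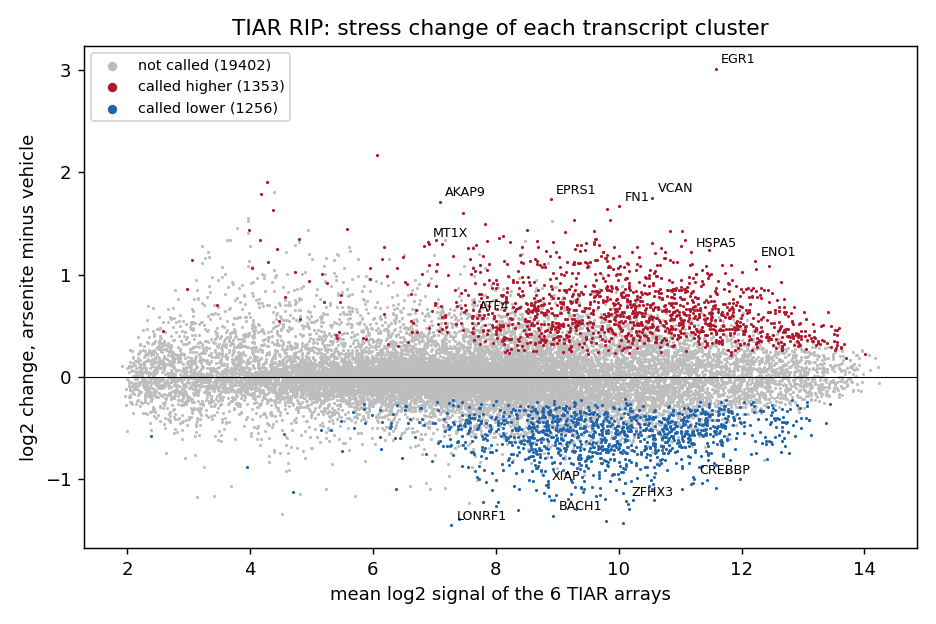
The plot sets the log2 change of each of 22011 transcript clusters (arsenite minus vehicle, vertical axis) against its mean log2 signal over the 6 TIAR arrays (horizontal axis), with 1353 called higher (6.15%) in red and 1256 called lower (5.71%) in blue. EGR1 lies apart from all others at 3.01, and called decreases reach no further than -1.45.

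The transcription factor gene EGR1, an immediate early gene, is induced within minutes of many stimuli through serum response factor. Its promoter (RefSeq, GRCh38.p14, chr5:138465229-138465528, plus strand, a window around the start of the gene) is printed because EGR1 had the largest change, with its 2 CArG boxes in capitals. The CArG box binds serum response factor. Both strands were searched.
EGR1: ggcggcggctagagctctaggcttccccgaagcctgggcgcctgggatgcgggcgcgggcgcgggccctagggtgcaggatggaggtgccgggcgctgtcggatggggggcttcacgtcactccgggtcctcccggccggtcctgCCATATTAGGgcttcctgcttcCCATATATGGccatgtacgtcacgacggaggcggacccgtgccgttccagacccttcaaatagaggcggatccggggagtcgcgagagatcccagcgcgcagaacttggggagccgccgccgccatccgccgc
At least 1 CArG box was found in 454 of 35116 RefSeq promoter windows (1.29%), and in 2 of 27 immediate early genes with a window, EGR1 and SRF. EGR1 (transcript cluster 2830861) read 13.21, 13.03 and 13.02 on the stressed arrays and 10.05, 10.12 and 10.04 on the unstressed arrays. The groups lay far apart, and the change of 3.01 ± 0.09 (SE, n = 3 arrays per group; adjusted p = 5.9e-11) was smaller than the 3.79 ± 0.09 of input. The difference of -0.77 ± 0.13 was called (adjusted p = 0.0193), though not without replicate 2 of the unstressed TIAR RIP or without replicate 2 or 3 of unstressed input (adjusted p = 0.0614 to 0.0709). SRF, which holds the other matched window, read 10.80, 10.72 and 10.65 with arsenite and 11.00, 11.09 and 11.08 without, a decrease of opposite sign to EGR1 (-0.33 ± 0.07, adjusted p = 0.00649).

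The immediate early genes as a list did not move one way. Of 37 measured, 6 rose, 4 fell and the median change was 0.01, beside -0.02 over all genes. The number that rose was 3 without replicate 3 of the stressed or replicate 2 of the unstressed TIAR arrays. CCN1, which encodes a matrix-associated growth regulator, read 11.06, 11.00 and 10.95 with arsenite and 10.26, 10.04 and 10.01 without (0.90 ± 0.10, adjusted p = 2.8e-05). CCN2, its relative, rose by 0.46 ± 0.09 (adjusted p = 0.00369). FOS, the partner of JUN in AP-1, read 8.35, 8.53 and 8.49 with arsenite and 7.94, 7.83 and 8.08 without. These arrays do not overlap, and FOS rose by 0.51 ± 0.13 (adjusted p = 0.0182), beside 1.13 ± 0.13 in input and 1.98 ± 0.13 in the G3BP1 RIP. Its TIAR call was lost without any of 4 of the TIAR arrays, replicates 2 and 3 of the stressed and 1 and 2 of the unstressed group (adjusted p = 0.0585 to 0.0867). The FOS change in TIAR was below that in G3BP1 by 1.47, in a test of the difference (-1.47 ± 0.18, adjusted p = 0.000139). ZFP36L2, a decay factor for AU-rich mRNA, fell by 0.48 ± 0.07 on the log2 scale (adjusted p = 0.000492), and the AP-1 genes JUND (-0.38 ± 0.08) and FOSL2 (-0.37 ± 0.08) fell too. JUND was not called after a further quantile normalization (adjusted p = 0.0752), and FOSL2 was not called without stressed TIAR replicate 3 (adjusted p = 0.0535).

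**Figure D2:**
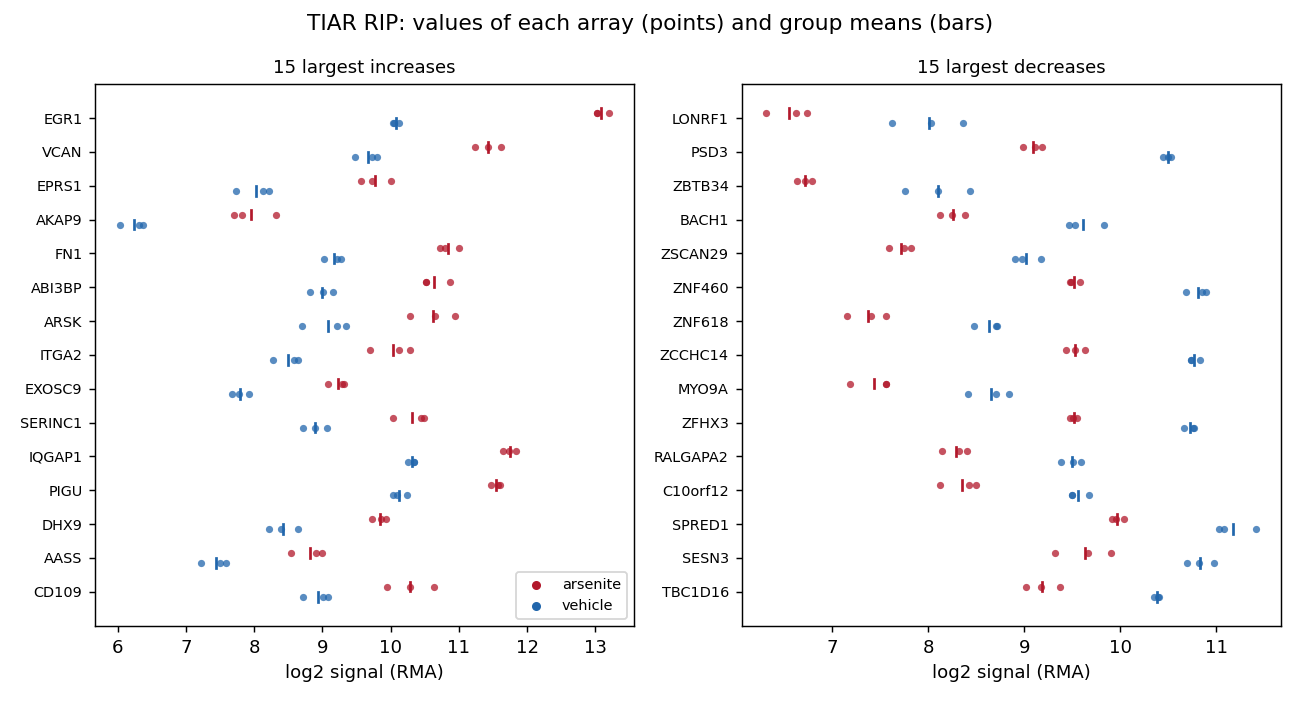
Points are the log2 signals of single TIAR arrays (red, arsenite; blue, vehicle) and bars the group means, for the 15 largest called increases (left) and decreases (right) whose arrays do not overlap. EGR1 rises from about 10.05 to 13.02 or more, and the other 14 increases are between 1.35 and 1.75 on the log2 scale.

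After EGR1, the largest increases came from several kinds of gene. The proteoglycan gene VCAN (2818517) read 11.61, 11.23 and 11.42 with arsenite and 9.80, 9.72 and 9.48 without, a gap of over 1.4 between the groups. EPRS1 (2456746), which encodes the enzyme that charges tRNA with glutamate and proline, read 10.00, 9.57 and 9.72 against 8.22, 8.12 and 7.73. AKAP9 (3012381), a centrosomal and Golgi scaffold, read 8.32, 7.70 and 7.82 against 6.37, 6.31 and 6.03, below the array median of 7.78 without stress. In these 3 genes stressed replicate 1 was the highest and unstressed replicate 3 the lowest array. The RNA helicase gene DHX9 (9.94, 9.73 and 9.86 against 8.64, 8.40 and 8.22) and the GPI transamidase subunit gene PIGU (11.48, 11.57 and 11.60 against 10.24, 10.04 and 10.10) each rose by 1.42, with adjusted p = 0.000179 and 4.66e-06. CD109, a GPI-anchored surface protein gene, had the widest stressed group of the 15, with 10.64, 9.94 and 10.29 against 9.08, 9.01 and 8.72 (1.35 ± 0.30, adjusted p = 0.00755).

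Several of the largest decreases were in genes of regulators. LONRF1 (3125001), of the RING finger family, had the largest decrease and read 6.62, 6.31 and 6.73 with arsenite and 8.36, 8.03 and 7.62 without (-1.45 ± 0.27, adjusted p = 0.00239). PSD3 (3126368), an exchange factor for ARF GTPases, read 9.11, 8.98 and 9.18 with arsenite and 10.53, 10.44 and 10.50 without (-1.40 ± 0.28, adjusted p = 0.0035). SPRED1, an inhibitor of RAS to ERK signalling, read 9.95, 9.91 and 10.04 against 11.41, 11.08 and 11.02 (-1.20 ± 0.19, adjusted p = 0.00064). SESN3, a stress-responsive regulator of mTORC1, read 9.66, 9.32 and 9.90 against 10.97, 10.82 and 10.69 (-1.20 ± 0.25, adjusted p = 0.00455). These genes were chosen among those whose stressed and unstressed arrays do not overlap. TBC1D16, a GTPase-activating protein gene for RAB proteins, fell by 1.19 ± 0.11 (adjusted p = 8.96e-06) and RALGAPA2, a subunit of a RAL GTPase-activating complex, fell by 1.20 ± 0.19 (adjusted p = 0.00059). Of the 15 largest decreases, 5 are zinc finger genes of the ZNF, ZBTB, ZSCAN and ZFHX families, described below.

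Genes of the response to metals and oxidants were split. Of 21 measured, 3 rose and 3 fell, with 5 and 4 without both arrays that stand apart. MT1X, a metallothionein that binds heavy metal ions, read 7.34, 7.65 and 7.66 with arsenite and 6.20, 6.15 and 6.35 without (1.32 ± 0.25, adjusted p = 0.00229). FTL, the light chain of the iron store ferritin, read 8.85, 8.91 and 8.70 against 7.67, 7.84 and 8.34 (0.87 ± 0.20, adjusted p = 0.0085). Neither group of arrays overlapped, although unstressed replicate 3 of FTL lay closest to the stressed arrays. BACH1, the repressor of HMOX1 and other antioxidant genes, read 8.25, 8.12 and 8.38 against 9.83, 9.53 and 9.46 (-1.35 ± 0.16, adjusted p = 6.49e-05). TXNRD1, which encodes thioredoxin reductase, fell by 0.50 ± 0.10 (adjusted p = 0.00496). HMOX1, the haem oxygenase gene that BACH1 represses, had a change of -0.02 ± 0.11 (adjusted p = 0.971), with overlapping arrays from 9.98 to 10.26 and from 10.06 to 10.23.

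In the integrated stress response, which starts from phosphorylated eIF2, 3 of 27 measured genes rose (11.1%) and 4 fell (14.8%), beside 6.15% and 7.15% of all genes. Both shares lie within those of the brighter genes (7.57% to 12.4% and 6.15% to 22.2%). The counts were 8 and 5 without both arrays that stand apart. Only 1 fell without replicate 1 of either TIAR group or unstressed TIAR replicate 2. ASNS, the asparagine synthetase gene, is a textbook target of ATF4. Its promoter is printed because ASNS had the largest increase of the list, with the core of its amino acid response element, TGATGAAAC, in capitals (RefSeq, GRCh38.p14, chr7:97872359-97872658, minus strand, 1 of 2 windows listed for the gene). This word was searched on both strands and stands in 79 of 35116 promoter windows (0.225%), and in 1 of 24 genes of the list with a window.
ASNS: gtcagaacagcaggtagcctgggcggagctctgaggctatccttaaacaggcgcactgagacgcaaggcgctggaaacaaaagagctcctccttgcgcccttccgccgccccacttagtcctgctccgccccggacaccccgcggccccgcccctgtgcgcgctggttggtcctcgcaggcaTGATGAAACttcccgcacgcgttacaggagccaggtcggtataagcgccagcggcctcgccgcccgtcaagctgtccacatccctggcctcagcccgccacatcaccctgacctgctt
ASNS (3062576) read 11.29, 11.20 and 11.38 with arsenite and 10.56, 10.24 and 10.23 without (0.95 ± 0.12, adjusted p = 0.000147). ATF4 itself, the transcription factor of this response, read 7.87, 8.09 and 7.83 against 7.46, 7.16 and 7.38. The TIAR groups did not overlap, and ATF4 rose by 0.60 ± 0.12 there (adjusted p = 0.0035), beside a change of 2.12 ± 0.12 in input. The TIAR change was smaller than that of input by a called difference (-1.52 ± 0.17, adjusted p = 0.00227), the largest in that direction among genes called in TIAR. ATF4 lay near the TIAR array median of 7.78, while its input means were 10.51 with arsenite and 8.39 without. The part of signal level in this difference was not tested. CEBPB, a transcription factor that acts with ATF4, fell by 0.35 ± 0.08 (adjusted p = 0.0058). EIF2AK4, which encodes the eIF2 kinase GCN2, had -0.61 ± 0.18 (adjusted p = 0.0374), a call that did not hold with any 1 of 5 TIAR arrays left out (adjusted p up to 0.145).

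Heat shock and cytosolic chaperone genes were called higher in 14 of 32 measured and lower in 1, beside the 6.15% and 7.15% of all genes, with a median change of 0.375. Without unstressed TIAR replicate 2 the count of increases was 9. DNAJC7, a cochaperone of HSP70 and HSP90, read 9.27, 9.31 and 9.44 with arsenite and 8.44, 8.19 and 8.18 without (1.07 ± 0.10, adjusted p = 8.52e-06). Its input change was -0.10 ± 0.10, and the difference of 1.17 ± 0.14 was called (adjusted p = 0.00227). HSPH1, an exchange factor of HSP70, read 11.34, 11.27 and 11.49 against 10.69, 10.48 and 10.34, and rose by 0.87 ± 0.12 (adjusted p = 0.000226). DNAJA1 (0.62 ± 0.11) and the chaperonin gene CCT3 (0.50 ± 0.09) rose as well, and HSBP1, which binds heat shock factor 1, fell by 0.80 ± 0.17 (adjusted p = 0.00456). In input 0 of the 32 were called higher and 1 lower, and in the G3BP1 RIP 2 higher and 4 lower. The difference between the TIAR and G3BP1 changes was called for 15 of the 32, higher in TIAR for 14 of them. Among all genes 4.6% were called higher and 10.2% lower in TIAR by this test.

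The secretory pathway begins with translocation of the new protein into the ER. Of 31 translocation and targeting genes measured, 9 rose and 0 fell, with a median of 0.25, and 5 rose without replicate 3 of either TIAR group. EMC1, of the ER membrane protein complex that inserts membrane proteins, read 11.30, 11.16 and 11.11 with arsenite and 9.95, 9.92 and 9.78 without (1.31 ± 0.10, adjusted p = 4.11e-06). SSR2, a subunit of the translocon-associated complex, rose by 0.64 ± 0.10 (adjusted p = 0.000475), SEC63 by 0.77 ± 0.15 (adjusted p = 0.00301) and SEC61A1, the channel itself, by 0.47 ± 0.10 (adjusted p = 0.00674).

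Folding and glycosylation inside the ER gave one of the highest shares of called increases. Of 45 genes measured, 23 rose and 0 fell, the median was 0.53, and the number that rose was between 18 and 29 with 1 array left out. Without both arrays that stand apart 1 fell. The promoters of HSPA5, the master chaperone of the ER lumen, and CALR, a lectin chaperone, are printed because these genes rose and their windows hold the ER stress element, in capitals. This element, CCAAT and CCACG with a spacer of fixed length between them, binds ATF6 with NF-Y. The HSPA5 window (RefSeq, GRCh38.p14, chr9:125241294-125241593, minus strand) holds it on the printed strand, and the CALR window (chr19:12938359-12938658, plus strand) on the opposite strand, so that it appears there as its reverse complement.
HSPA5: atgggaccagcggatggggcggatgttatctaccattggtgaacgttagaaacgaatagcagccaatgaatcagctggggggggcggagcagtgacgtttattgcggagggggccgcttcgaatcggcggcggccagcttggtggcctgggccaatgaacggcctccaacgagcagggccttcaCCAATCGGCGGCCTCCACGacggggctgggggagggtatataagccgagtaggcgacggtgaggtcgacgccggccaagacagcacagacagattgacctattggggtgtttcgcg
CALR: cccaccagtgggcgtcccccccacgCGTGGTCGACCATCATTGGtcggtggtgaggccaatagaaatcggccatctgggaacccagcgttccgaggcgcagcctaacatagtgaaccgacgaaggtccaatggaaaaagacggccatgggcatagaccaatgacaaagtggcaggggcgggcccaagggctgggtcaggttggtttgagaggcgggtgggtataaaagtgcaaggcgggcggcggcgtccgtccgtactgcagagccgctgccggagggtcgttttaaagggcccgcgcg
Both strands were searched, and 27 of 35116 windows (0.0769%) hold the element, among them 6 of 40 genes of the list with a window. These 6 are HSPA5, CALR, CANX, PDIA6, ERO1B and ALG12. HSPA5 (3225398) read 11.62, 11.71 and 12.02 with arsenite and 10.69, 10.43 and 10.57 without (1.22 ± 0.11, adjusted p = 7.65e-06). CALR (3822049) read 12.76, 12.88 and 12.96 against 12.49, 12.26 and 12.41 (0.48 ± 0.08, adjusted p = 0.00142). Stressed and unstressed arrays were apart in both genes. CANX, the membrane-bound partner of CALR, rose by 0.35 ± 0.08 (adjusted p = 0.0102) and the disulfide isomerase gene PDIA6 by 0.47 ± 0.13 (adjusted p = 0.0245), while ERO1B (0.30 ± 0.21, adjusted p = 0.517) and ALG12 (0.13 ± 0.10, adjusted p = 0.589) were not called. The element also stands in the windows of XBP1 and CRELD2, which were not called either (-0.06 ± 0.16 and 0.07 ± 0.07).

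Members outside the 6 in which the ER stress element was found rose too. Changes with and without the element were not compared. PLOD1, a lysyl hydroxylase of collagen, read 11.17, 11.17 and 11.05 against 10.15, 10.16 and 10.10 (0.99 ± 0.07, adjusted p = 9.68e-07). FKBP10, a collagen chaperone, read 9.62, 9.85 and 9.68 against 8.60, 8.51 and 8.66 (1.13 ± 0.10, adjusted p = 6.99e-06). STT3A, a catalytic subunit of the oligosaccharyltransferase, rose by 0.93 ± 0.08 (adjusted p = 6.48e-06). Of the same 45 genes, 13 were higher and 1 lower in input, beside 2.08% and 13.5% of all genes. In the G3BP1 RIP 21 were higher and 0 lower, beside 11.9% and 4.12%. The TIAR change differed from that of input for 1 of the 45.

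Genes of the unfolded protein response and of ER-associated degradation were called higher in 6 of 22 and lower in 1. OS9, a lectin that marks misfolded glycoproteins, read 9.26, 9.31 and 9.26 with arsenite and 8.25, 8.08 and 8.21 without (1.10 ± 0.11, adjusted p = 1.2e-05). ATF6, the ER stress sensor that is cleaved to a transcription factor, rose by 0.95 ± 0.17 (adjusted p = 0.00132), the ER ubiquitin ligase gene SYVN1 by 0.80 ± 0.08 (adjusted p = 2.25e-05) and the extraction ATPase gene VCP by 0.94 ± 0.10 (adjusted p = 3.06e-05). Of 28 genes of vesicle coats and ER to Golgi transport, 6 rose and 0 fell, a number that was 2 or 3 without any 1 TIAR array and 10, with 1 that fell, without both arrays that stand apart. COPG1, a coat subunit of retrograde vesicles, read 11.24, 11.11 and 11.08 against 10.51, 10.59 and 10.51 (0.61 ± 0.10, adjusted p = 0.000768).

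Of 52 matrix glycoprotein and proteoglycan genes, 27 rose and 0 fell (median 0.32), and 25 were not called. With 1 array left out 20 to 29 rose, and 1 fell without both arrays that stand apart, or without either of them alone. FN1, fibronectin, read 11.00, 10.72 and 10.80 with arsenite and 9.22, 9.27 and 9.02 without, and the tenascin gene TNC 11.30, 11.35 and 11.30 against 10.14, 10.02 and 10.00. The nearest arrays of the groups were more than 1 apart in both genes. TGFBI, an adhesion protein of the matrix, rose by 1.06 ± 0.09 (adjusted p = 5.38e-06) and the basement membrane gene NID1 by 0.99 ± 0.10 (adjusted p = 1.43e-05). In input 19 of the 52 were called higher and in the G3BP1 RIP 25, with 0 lower in either, and the TIAR and input changes differed for 0 of them in the limma test of the difference.

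Of 33 collagen genes measured, 6 rose and 0 fell, with a median of 0.06. COL12A1, a collagen of fibril surfaces, read 11.12, 10.75 and 10.94 against 9.71, 9.77 and 9.51 (1.27 ± 0.18, adjusted p = 0.000258). COL14A1, of the same class, rose by 1.10 ± 0.19 (adjusted p = 0.00111) and COL1A2, a chain of the main fibrillar collagen, by 0.72 ± 0.11 (adjusted p = 0.000514). Of 35 genes of extracellular proteases, inhibitors and crosslinkers, 9 rose and 2 fell. The number that fell was 4 without both arrays that stand apart or without unstressed G3BP1 replicate 3, and 1 without any of 5 TIAR arrays, all but stressed replicate 3. The protease inhibitor gene TIMP1 read 12.32, 12.58 and 12.21 against 11.11, 11.29 and 11.42 (1.09 ± 0.12, adjusted p = 3.5e-05), and PLAT, tissue plasminogen activator, rose by 0.69 ± 0.07 (adjusted p = 1.33e-05). ADAMTS6, a matrix metalloprotease gene, fell by 0.53 ± 0.11 (adjusted p = 0.00357).

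Of 34 integrin and adhesion receptor genes, 16 rose and 0 fell (median 0.35). ITGA2, the collagen-binding integrin subunit, read 10.28, 9.70 and 10.13 with arsenite and 8.64, 8.59 and 8.27 without. ITGB4, which anchors hemidesmosomes to laminin, read 10.38, 10.51 and 10.21 against 9.27, 9.28 and 9.32 (1.08 ± 0.08, adjusted p = 1.25e-06). NCAM1, a neural adhesion molecule, rose by 1.10 ± 0.10 (adjusted p = 9.13e-06). ITGA3 rose by 0.66 ± 0.07 in TIAR against 0.19 ± 0.07 in input, and was the 1 member of this list whose TIAR change was called larger than that of input (adjusted p = 0.046). Inside the cell, 11 of 31 genes of the actin and adhesion cytoskeleton rose and 1 fell (2 fell without both arrays), and 7 rose without stressed TIAR replicate 1 or unstressed replicate 2 or 3. The scaffold gene IQGAP1 read 11.74, 11.65 and 11.84 against 10.35, 10.34 and 10.26 (1.43 ± 0.08, adjusted p = 1.23e-07), the adhesion gene VCL rose by 0.68 ± 0.07 (adjusted p = 1.8e-05), and PXN, which encodes paxillin, fell by 0.44 ± 0.08 (adjusted p = 0.00193).

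**Figure D3:**
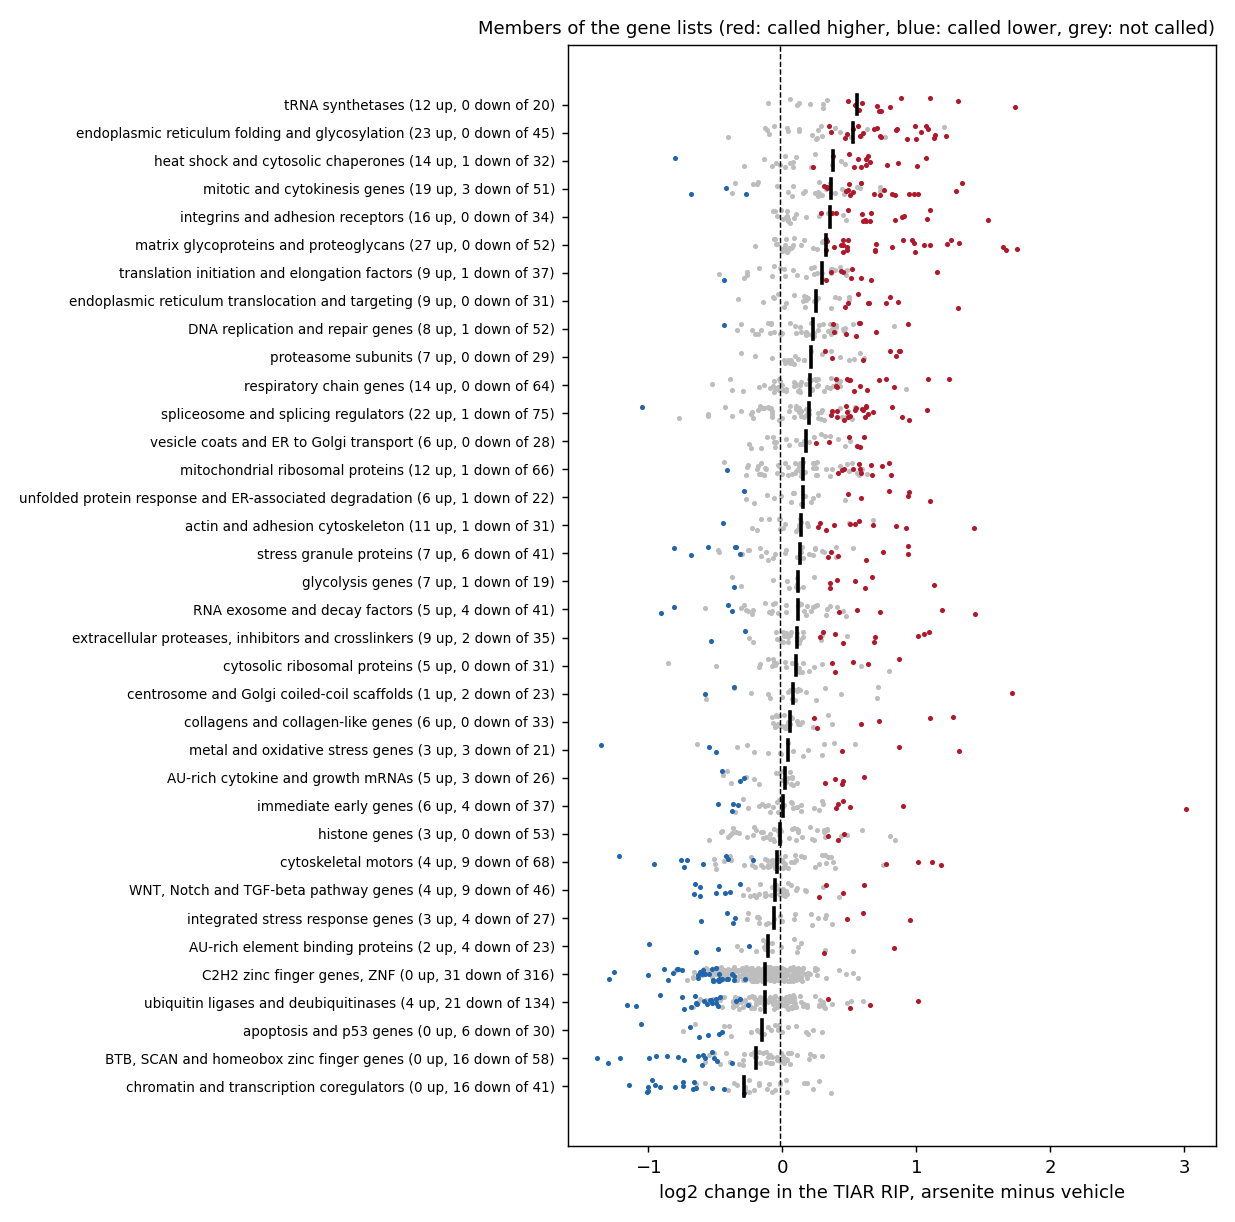
Each row is a gene list and each point a measured member at its log2 change in the TIAR RIP (arsenite minus vehicle), red where called higher, blue where called lower and grey otherwise, with the list's median as a black bar and the median of all genes dashed. tRNA synthetases have the highest median (0.56) and chromatin and transcription coregulators the lowest (-0.29).

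The tRNA synthetases, which charge tRNAs with their amino acids, listed with their scaffold AIMP1, had the highest median change of the lists, 0.56. Of 20 measured, 12 rose and 0 fell (9 to 13 with 1 array left out). QARS1, the glutamine enzyme, read 11.82, 11.72 and 11.71 with arsenite and 10.62, 10.74 and 10.58 without (1.10 ± 0.08, adjusted p = 1.53e-06). TARS1, the threonine enzyme, read 10.27, 10.06 and 10.04 against 9.13, 8.75 and 8.57 (1.31 ± 0.18, adjusted p = 0.00019), and FARSA, of the phenylalanine enzyme, 10.79, 10.95 and 10.86 against 10.15, 10.10 and 10.24 (0.71 ± 0.07, adjusted p = 1.43e-05). No stressed array of these genes overlapped an unstressed one. In input 2 of the 20 were called higher and 0 lower (median 0.06), and in the G3BP1 RIP 1 was higher and 8 were lower (median -0.35). The TIAR change was called larger than that of G3BP1 for 17 of the 20, beside 4.6% of all genes, and larger than that of input for 4, QARS1, SARS1, FARSA and WARS1, beside 0.562% of all genes. NARS1, the asparagine enzyme, had 0.11 ± 0.11 in TIAR (adjusted p = 0.707) and fell in G3BP1 (-0.96 ± 0.11, adjusted p = 3.91e-05).

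**Figure D4:**
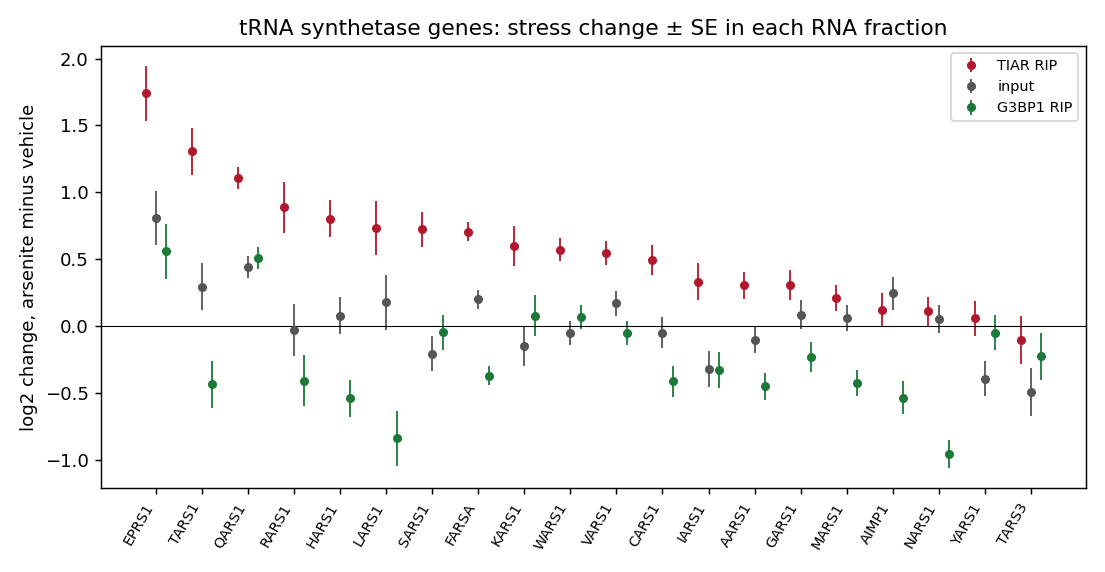
Points are the log2 stress changes of 20 genes (19 tRNA synthetases and AIMP1) in the TIAR RIP (red), input (grey) and the G3BP1 RIP (green), ordered by the TIAR change, and bars are the SE. The TIAR value runs from 1.74 for EPRS1 to -0.11 for TARS3 and lies above the G3BP1 value in all 20 genes.

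Of 37 initiation and elongation factor genes, 9 rose and 1 fell (median 0.29), with 5 rising without stressed TIAR replicate 1 or 2 or unstressed replicate 2 or 3, and 17 without unstressed G3BP1 replicate 3. Without both arrays that stand apart the counts were 19 higher and 2 lower. EIF5B, the GTPase of subunit joining, read 8.47, 7.76 and 8.21 with arsenite and 7.09, 7.17 and 6.73 without (1.15 ± 0.25, adjusted p = 0.00644). EIF3I (0.59 ± 0.10), EIF3D (0.52 ± 0.09) and EIF2B4 (0.66 ± 0.15), subunits of eIF3 and of the eIF2 exchange factor, rose too. EIF4EBP2, an inhibitor of the cap-binding protein, had -0.44 ± 0.11 (adjusted p = 0.0132), a call lost without replicate 1 of either TIAR group (adjusted p = 0.0591 and 0.0742).

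Only cytosolic ribosomal protein genes on a cluster with 1 symbol were counted, which may leave out part of the family. Of these 31, 5 rose (16.1%, beside 6.15% of all genes) and 0 fell. The counts were 7 and 2 without both arrays that stand apart. Of 66 mitochondrial ones 12 rose (18.2%) and 1 fell (1.52%, beside 7.15% of all genes). RPL8 read 13.71, 13.81 and 13.65 against 13.07, 13.06 and 13.13, close to the top of the scale, which ends at 14.34 on these arrays. Its change of 0.64 ± 0.06 (adjusted p = 1.43e-05) exceeded that of input (0.06 ± 0.06) by a called difference (adjusted p = 0.014). The mitochondrial count was 6 or 7 without stressed TIAR replicate 2 or unstressed replicate 1 or 2, and 24, with 2 that fell, without both arrays that stand apart. MRPL46 rose by 0.67 ± 0.09 (adjusted p = 0.00024) and MRPS7 by 0.57 ± 0.09 (adjusted p = 0.000482), and both exceeded input. Nuclear genes of the respiratory chain rose in 14 of 64 and fell in 0 (23 and 2 without both arrays). The complex I gene NDUFS4 read 10.23, 10.05 and 9.97 against 8.93, 8.75 and 8.83 (1.24 ± 0.22, adjusted p = 0.00157), and the complex II gene SDHA rose by 1.09 ± 0.19 (adjusted p = 0.00148). Of 29 proteasome genes, 7 rose and 0 fell, or 13 and 1 without both arrays, PSMC3 among them (0.85 ± 0.12, adjusted p = 0.000213).

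Among genes of RNA-binding proteins, TIAL1 itself read 9.35, 9.26 and 9.33 with arsenite and 9.57, 9.31 and 9.38 without, overlapping arrays with a change of -0.11 ± 0.15 (adjusted p = 0.833). TIA1 read 11.58, 11.23 and 11.48 against 11.08, 10.98 and 10.65, without overlap but without a call (0.53 ± 0.20, adjusted p = 0.124). G3BP1 (0.40 ± 0.13, adjusted p = 0.0545) and G3BP2 (0.13 ± 0.15, adjusted p = 0.777) were not called either. Of 41 stress granule protein genes measured, 7 rose and 6 fell. HNRNPA2B1, a nuclear RNA-binding protein found in granules, read 12.15, 11.84 and 12.25 against 11.27, 11.14 and 11.02 (0.94 ± 0.12, adjusted p = 0.000174), and TAF15, another RNA-binding protein gene of this list, rose by 0.75 ± 0.12 (adjusted p = 0.00081). PRRC2B fell by 0.68 ± 0.12 (adjusted p = 0.00131) and LARP1, which binds mRNAs of ribosomal proteins, by 0.32 ± 0.07 (adjusted p = 0.00932). The counts were 4 up without stressed TIAR replicate 1 and 2 down without unstressed TIAR replicate 1.

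TIAR is known to bind AU-rich mRNAs, and a hand-made list of 26 AU-rich cytokine and growth mRNAs was measured. No search for AU-rich sites was made, since 3′ sequences were not used here. Of the 26, 5 rose (19.2%, beside 6.15% of all genes), 3 fell (11.5%, beside 7.15%) and the median was 0.02. The share that fell lies within the 6.15% to 22.2% of the brighter genes. The number that rose was 3 without replicate 1 of either TIAR group, and 6 fell without both arrays that stand apart. TGFB2 read 12.03, 11.80 and 12.11 with arsenite and 11.38, 11.41 and 11.33 without (0.61 ± 0.10, adjusted p = 0.000766), and the urokinase receptor gene PLAUR rose by 0.39 ± 0.08 (adjusted p = 0.00509). BCL2, an inhibitor of apoptosis, read 6.76, 6.85 and 6.77 against 7.29, 7.13 and 7.30 (-0.45 ± 0.08, adjusted p = 0.000964), and CCND1, cyclin D1, fell by 0.31 ± 0.06 (adjusted p = 0.0032). Of 23 genes of AU-rich element binding proteins, 2 rose and 4 fell, with 4 rising without both arrays and 1 without stressed or unstressed TIAR replicate 3 or stressed replicate 1. RC3H2, a Roquin protein that directs mRNA decay, read 11.50, 11.31 and 11.61 against 12.53, 12.45 and 12.42 (-1.0 ± 0.15, adjusted p = 0.000378), and CELF2 fell by 0.64 ± 0.10 (adjusted p = 0.000654).

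Spliceosome and splicing regulator genes were called higher in 22 of 75 and lower in 1, with 4 lower without both arrays that stand apart or without unstressed G3BP1 replicate 3 alone. PRPF3, of the U4/U6 particle, read 9.58, 9.45 and 9.71 with arsenite and 8.71, 8.53 and 8.25 without (1.08 ± 0.16, adjusted p = 0.000334), SRRM1 rose by 0.63 ± 0.09 (adjusted p = 0.000276), and LSM3 fell by 1.05 ± 0.19 (adjusted p = 0.00153). In the G3BP1 RIP 9 of the 75 were higher and 16 lower, beside 11.9% and 4.12% of all genes. The TIAR change was called above that of G3BP1 for 23 and below it for 3, beside 4.6% and 10.2%. Among 41 exosome and decay genes 5 rose and 4 fell, with 11 and 9 without both arrays that stand apart, 3 rising without unstressed TIAR replicate 3, and 1 or 2 falling without any 1 TIAR array. EXOSC9, a core subunit of the RNA exosome, read 9.28, 9.09 and 9.32 against 7.92, 7.78 and 7.67 and rose by 1.44 ± 0.14 (adjusted p = 1.49e-05). The exosome helicase gene MTREX rose by 0.73 ± 0.10 (adjusted p = 0.000187) and the nuclease gene EXOSC10 by 0.56 ± 0.08 (adjusted p = 0.000382). In the G3BP1 RIP, by contrast, EXOSC9 fell by 0.85 ± 0.14 and MTREX by 1.0 ± 0.10 on the same scale.

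Genes of mitosis and cytokinesis were called higher in 19 of 51 and lower in 3 (30 and 4 without both arrays that stand apart, and 0 or 1 falling without stressed TIAR replicate 1 or unstressed replicate 1 or 3). ANLN, the contractile ring scaffold, read 12.82, 12.50 and 12.65 with arsenite and 11.92, 11.88 and 11.64 without, and CDC20, an activator of the anaphase-promoting complex, 13.68, 13.57 and 13.51 against 13.02, 13.13 and 13.09. Both had stressed arrays above every unstressed array. AURKB, the kinase named in the title of the study, read 11.67, 11.96 and 11.77 against 11.51, 11.38 and 11.52 (0.33 ± 0.08, adjusted p = 0.0153). The AURKB call was lost without stressed or unstressed TIAR replicate 2 and in a fit of the TIAR arrays alone (adjusted p = 0.0657 to 0.083). ECT2, the exchange factor of cytokinesis also named there, read 10.68, 10.06 and 10.55 against 10.07, 9.98 and 9.49 and was not called (0.58 ± 0.25, adjusted p = 0.173). Its stressed replicate 2 overlapped the unstressed arrays. Of 52 replication and repair genes, 8 rose and 1 fell, with 18 and 2 without both arrays and 4 or 5 rising with any 1 of 9 arrays left out, 4 of them TIAR arrays (stressed replicates 1 and 3, unstressed replicates 2 and 3). PRIM1, a primase subunit, rose by 0.58 ± 0.09 (adjusted p = 0.000826).

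Of 19 glycolysis genes, 7 rose and 1 fell (2 fell without both arrays that stand apart), and 4 rose without unstressed TIAR replicate 2. The enolase gene ENO1 read 12.85, 12.80 and 12.72 with arsenite and 11.77, 11.65 and 11.54 without (1.13 ± 0.07, adjusted p = 7.27e-07). Its input change was 0.21 ± 0.07, and the difference was called (adjusted p = 0.00227). PKM, the pyruvate kinase gene, rose by 0.54 ± 0.06 (adjusted p = 3.24e-05). Of 68 cytoskeletal motor genes, 4 rose (5.88%, near the 6.15% of all genes) and 9 fell (13.2%, beside 7.15%), with 18 lower without both arrays. The share that fell lies within the 6.15% to 22.2% of the brighter genes. DYNC1H1, the dynein heavy chain, read 9.93, 9.91 and 9.95 against 8.94, 8.76 and 8.74 (1.12 ± 0.12, adjusted p = 3.63e-05), and the kinesin gene KIF3B read 8.39, 8.31 and 8.43 against 9.25, 9.02 and 9.0 (-0.71 ± 0.11, adjusted p = 0.000596).

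The groups called lower were led by regulators of transcription. Of 41 chromatin and transcription coregulator genes measured, 0 rose and 16 fell (12 to 19 with 1 array left out, and 4 rose without both arrays that stand apart), with a median of -0.29. CREBBP, a histone acetyltransferase, read 10.77, 10.70 and 10.69 with arsenite and 11.67, 11.72 and 11.77 without (-1.0 ± 0.09, adjusted p = 5.63e-06). The histone methyltransferase gene KMT2D read 9.56, 9.55 and 9.42 against 10.39, 10.46 and 10.52 (-0.95 ± 0.08, adjusted p = 6.48e-06), and the Mediator gene MED13L 10.97, 10.92 and 10.94 against 11.93, 11.95 and 11.95 (-1.0 ± 0.10, adjusted p = 1.3e-05). In each the stressed arrays lay within 0.14 of each other and well below the unstressed ones. TET3, a 5-methylcytosine dioxygenase, fell by 1.15 ± 0.10 (adjusted p = 6.99e-06). In input 0 of the 41 were higher and 28 lower (median -0.66), beside 2.08% and 13.5% of all genes. The TIAR change was called different from that of input for 1.

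Of 316 ZNF genes, which encode zinc finger transcription factors, 0 rose and 31 fell (9.81%, near the 7.15% of all genes), with a median of -0.13. The number that fell was 19 without stressed TIAR replicate 2 or unstressed replicate 1 and 72, with 4 that rose, without both arrays that stand apart. In input 1 of the 316 was higher and 60 were lower, beside 2.08% and 13.5% of all genes. ZNF236 read 8.23, 8.23 and 8.24 with arsenite and 9.20, 9.07 and 9.08 without (-0.89 ± 0.10, adjusted p = 5.32e-05), and ZNF532 fell by 0.78 ± 0.11 (adjusted p = 0.000204). Of 58 BTB, SCAN and homeobox zinc finger genes, 0 rose and 16 fell, with 26 without both arrays. In input 0 of the 58 were higher and 18 lower. The TIAR and input changes were called different for 0 genes of either zinc finger list. ZFHX3, a large homeodomain factor, read 9.55, 9.51 and 9.48 against 10.66, 10.75 and 10.77 (-1.21 ± 0.07, adjusted p = 3.91e-07), and ZBTB34 read 6.79, 6.64 and 6.72, below the array median, against 8.43, 8.10 and 7.76.

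Of 134 ubiquitin ligase and deubiquitinase genes, 4 rose and 21 fell, with 10 to 13 falling without stressed TIAR replicate 2 or unstressed replicate 1 or 2. When both arrays that stand apart were left out, the counts were 11 higher and 42 lower. The deubiquitinase gene USP31 read 10.54, 10.46 and 10.47 with arsenite and 11.56, 11.59 and 11.59 without (-1.09 ± 0.10, adjusted p = 7.16e-06), and the ligase gene UBE3B fell by 0.75 ± 0.11 (adjusted p = 0.000297). MARCHF6, a ligase of the ER membrane, rose instead and read 12.09, 11.82 and 11.93 against 10.98, 11.03 and 10.79 (1.01 ± 0.15, adjusted p = 0.00033). In input 0 of the 134 were higher and 46 lower, beside 2.08% and 13.5% of all genes. Of 30 apoptosis and p53 genes, 0 rose and 6 fell (1 and 11 without both arrays). XIAP, a caspase inhibitor, read 8.24, 8.17 and 8.46 against 9.51, 9.29 and 9.24 (-1.06 ± 0.19, adjusted p = 0.00166), BCL2L1 fell by 0.62 ± 0.09 (adjusted p = 0.000384) and MDM2, the ligase of p53, by 0.69 ± 0.14 (adjusted p = 0.00365). Of 46 genes of WNT, Notch and TGF-beta signalling, 4 rose and 9 fell (2 rose without any 1 of 4 TIAR arrays, replicates 2 and 3 of the stressed and 1 and 2 of the unstressed group), SKI, a repressor of SMAD signalling (-0.65 ± 0.07), and SMAD3 (-0.43 ± 0.07) among the latter. A RIP value is a share of the recovered RNA. A decrease alone does not show whether less transcript was present or less was recovered with TIAR. Fewer cells holding a transcript and less of it per cell cannot be told apart either.

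Genes that fell were longer in the genome than genes that rose. The median RefSeq gene span was 66.5 kb for those that fell, 27.9 kb for those that rose and 27.9 kb for all genes, and 37% of those that fell spanned over 100 kb, against 14.3% and 18.3%. Among 7710 genes with a mean signal above the array median, the share called lower was 6.15% below 10 kb, 8.82% from 10 to 30 kb, 12.3% from 30 to 100 kb and 22.2% beyond 100 kb. The share called higher was 10.3%, 12.4%, 10.9% and 7.57% in the same classes. The median input change of these classes went from -0.06 to -0.14, -0.25 and -0.41, and the median TIAR change from 0.00 to -0.01, -0.02 and -0.14. Span and signal level, probe number and transcript length are not independent of each other, and their part in these shares was not tested.

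Called changes in TIAR were set beside those of the same genes in input. Input uses other arrays, but both changes come from the same fit with the same SE for each gene. A gene of small SE is thus more easily called in both, so the share of all genes is not a matched baseline. The same holds for G3BP1 below. Of the 1018 genes that fell in TIAR, 793 (77.9%) also fell in input, where 13.5% of all genes fell, and these were 41.2% of the input decreases. Of the 875 that rose in TIAR, 197 (22.5%) rose in input, where 2.08% of all genes rose, and these were 66.6% of the input increases. A further 11 that rose in TIAR fell in input and 1 that fell in TIAR rose there. The median input change was 0.21 for genes that rose in TIAR by a median of 0.60, and -0.56 for those that fell by a median of 0.54. These genes were chosen by their TIAR change, so the TIAR and input medians are not on an equal footing. The test of the difference between the TIAR and input changes called 80 genes higher (0.562%) and 6 lower (0.0422%) of all 14232, and 133 transcript clusters higher (0.604%) and 11 lower (0.05%), so for most genes called in TIAR no difference from input was shown.

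**Figure D5:**
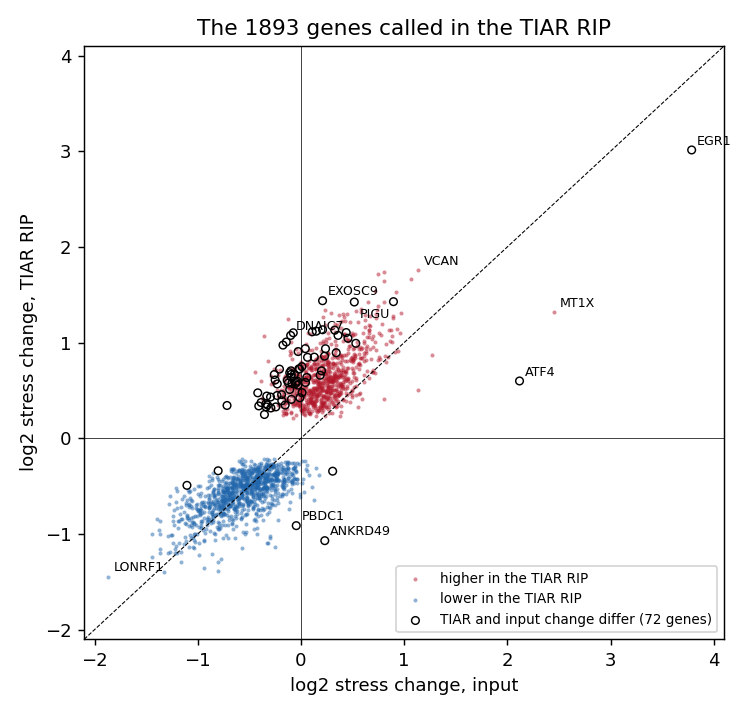
Each point is 1 of the 1893 genes called in the TIAR RIP, at its log2 stress change in input (horizontal axis) and in the TIAR RIP (vertical axis), red where it rose and blue where it fell in TIAR, with open circles for the 72 genes whose changes differ by test and a dashed line of equal change. Most blue points lie at negative input changes, while many red points lie near an input change of 0, and ATF4 lies furthest below the line.

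Among genes called in TIAR, the largest called differences above input were those of EXOSC9 (1.23 ± 0.20), S100A13, DNAJC7, AATF and IMPDH2. The difference contains the TIAR change by which these genes were chosen, so its direction is in part set by that choice. AATF, a nucleolar factor of ribosome assembly, read 8.91, 8.87 and 8.95 with arsenite and 8.03, 7.97 and 7.81 without. It rose by 0.97 ± 0.09 in TIAR (adjusted p = 1.13e-05), with -0.17 ± 0.09 in input (adjusted p = 0.253), a difference of 1.15 ± 0.13 (adjusted p = 0.00227). IMPDH2, which limits guanine nucleotide synthesis, read 10.57, 10.59 and 10.42 against 9.70, 9.42 and 9.45, with a difference of 1.15 ± 0.21 from input (adjusted p = 0.0315). Below input, after ATF4, were ANKRD49 (-1.30 ± 0.22, adjusted p = 0.0204) and PBDC1 (-0.87 ± 0.15, adjusted p = 0.0204), which fell in TIAR by 1.07 ± 0.15 and 0.91 ± 0.10 and in input had 0.23 ± 0.15 and -0.05 ± 0.10. Of these differences only those of DNAJC7, AATF and ATF4 kept their call under every alternative tried, and EGR1, EXOSC9, S100A13, IMPDH2, ANKRD49 and PBDC1 lost it in at least 1 fit with a TIAR array left out.

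Against the G3BP1 RIP, 330 of the 875 genes that rose in TIAR (37.7%) rose there too, where 11.9% of all genes rose, and 80 (9.14%) fell, where 4.12% fell. Of the 1018 that fell in TIAR, 69 (6.78%) fell and 198 (19.4%) rose in G3BP1. The difference between the changes was called for 654 genes higher (4.6%) and 1455 lower in TIAR (10.2%), and it contains the TIAR change by which the genes below were chosen, so the direction is in part set by that choice. Of the genes that rose in TIAR it was called higher for 329 and lower for 23, and of those that fell lower for 696 and higher for 1. SSB, which encodes the La protein that binds RNA polymerase III transcripts, read 11.35, 11.59 and 11.15 with arsenite and 10.24, 10.19 and 9.98 without, and rose by 1.23 ± 0.16 in TIAR (adjusted p = 0.000128) while it fell by 0.70 ± 0.16 in G3BP1 (adjusted p = 0.00684). POMK, a kinase for dystroglycan glycans, read 10.74, 10.62 and 10.43 against 11.53, 11.51 and 11.36, and fell by 0.87 ± 0.16 in TIAR (adjusted p = 0.0022) while it rose by 1.17 ± 0.16 in G3BP1 (adjusted p = 0.000222). PLAGL2, a zinc finger factor, did the same, with -0.81 ± 0.17 and 1.01 ± 0.17. Over transcript clusters 1112 were higher (5.05%) and 1882 lower in TIAR (8.55%), and without replicate 3 of the unstressed G3BP1 RIP 2194 were higher and 1841 lower.

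Markers of the labelled cell type gave clear signal in the TIAR RIP only in part. A RIP value also depends on how much of a transcript was recovered with TIAR. It does not show whether the cells express a marker. The intermediate filament gene VIM read 12.77, 12.90 and 12.88 with arsenite and 12.58, 12.44 and 12.56 without (0.32 ± 0.08, adjusted p = 0.0104, or 0.0625 without unstressed TIAR replicate 2). GFAP, the filament that defines astrocytes, had group means of 8.0 and 8.06, little above the array median of 7.78, and the astrocyte genes S100B (4.60 and 4.69) and AQP4 (4.75 and 4.74) were low on this scale. Of 16 astrocyte and glioma markers, 4 rose (2 without unstressed TIAR replicate 2) and 0 fell, and their summed linear signal ran from 21540 to 22280 with arsenite and from 17490 to 18230 without. Of 12 neuronal markers 0 were called, with sums from 12140 to 12310 against 11980 to 12520. Among 12 myeloid markers CD68, a lysosomal glycoprotein gene, rose (1.08 ± 0.10, adjusted p = 8.69e-06), and PTPRC, which defines leukocytes, stayed at 3.55 to 3.76 on all 6 arrays. The summed myeloid signal went from 1630 to 1781 without arsenite to 2379 to 2805 with it. Of 9 epithelial markers KRT18 was called higher (0.51 ± 0.13, adjusted p = 0.0156), a call lost without any of 4 TIAR arrays (replicates 1 and 2 of each group; adjusted p up to 0.0799), with 2 of the 9 called without both arrays that stand apart, while EPCAM was at 3.31 and 3.40. The summed epithelial signal was 4627 to 5577 with arsenite and 4287 to 4515 without. None of 4 blood markers was called, with sums of 372.3 to 405.8 and 376.2 to 408.2.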

How the data were processed

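RNA was measured on 18 exon arrays of 6 groups, and the 6 TIAR RIP arrays carry this report. Per the submitters' processing notes, the deposited log2 values were made by the authors with RMA in Affymetrix Expression Console, 1 value per transcript cluster. RMA normalises and summarises probes, so a change is relative to the other transcripts of the array. The software version, the genome build and the extent of joint normalization were not given in the sources used here. Depth does not apply to arrays, and their number limits the precision.

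Clusters were named from the platform table (14432 with 1 symbol, 2408 with several, 5171 with none). Entrez IDs matched RefSeq (GRCh38.p14) for 14404 of them, and 0 symbols changed. A gene is its brightest cluster over the 6 TIAR arrays (14232 genes). Of 197 genes with several clusters, 0 had calls in opposite directions.

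A model of 6 group means was fitted to all 18 arrays with limma 3.58.1 in R 4.3.3 (lmFit and eBayes, 12 residual and 2.61 prior degrees of freedom), with two-sided Benjamini-Hochberg adjustment over all 22011 clusters and a threshold of 0.05. Differences between TIAR and input or G3BP1 changes are contrasts of the same fit. An exact permutation test of 3 against 3 arrays cannot go below p = 0.1 and was not used. The labels call the arrays biological replicates without saying from which cultures, so p-values measure the spread between these samples. No array was left out. Named genes are the 15 largest called changes in each direction with non-overlapping arrays and a higher mean above the array median, up to 4 called members per list and direction by smallest adjusted p (where fewer than 2 are called, the 2 with the smallest p, given as not called), the 5 largest called differences in each direction, and a fixed set (TIAL1, TIA1, G3BP1, G3BP2, ECT2, AURKB, EGR1, FOS, ATF4, BACH1, HMOX1, GFAP, VIM). Members with a promoter match, the tRNA synthetases SARS1, WARS1, NARS1 and TARS3, and the marker genes S100B, AQP4 and EPCAM were chosen after their values were seen. The members, the 42 lists and the alternatives were chosen with earlier results of these data known. The fit was tested on simulated data. Promoter windows are RefSeq sequences.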

Additional observations from a re-analysis of the deposited data

Results flagged for a closer look

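The stress change in the TIAR RIP differed from that of input for 133 transcript clusters that were higher and 11 that were lower in TIAR, by the limma test of the difference. Among genes called in TIAR, EXOSC9 (1.23), S100A13 (1.18), DNAJC7 (1.17), AATF (1.15) and IMPDH2 (1.15) had the largest differences above input on the log2 scale. ATF4 (-1.52), ANKRD49 (-1.30), PBDC1 (-0.87), EGR1 (-0.77) and RFTN2 (-0.65) had the largest below it. All of these differences contain the TIAR change by which the genes were chosen. RFTN2 read 5.60, 5.30 and 5.62 with arsenite and 5.83, 5.83 and 5.90 without, low on this scale, and S100A13 read 8.64, 9.21 and 8.35 against 7.76, 7.39 and 7.73.

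The change in TIAR differed from that in the G3BP1 RIP for 1112 clusters that were higher and 1882 that were lower in TIAR. Among genes called in TIAR, EXOSC9 (2.29), IK (2.15), SSB (1.92), CENPE (1.87) and AATF (1.86) had the largest called differences in favour of TIAR. The largest in favour of G3BP1 were those of POMK (-2.04), LINC00052 (-1.90), PLAGL2 (-1.82), TAX1BP3 (-1.81) and NBR2 (-1.74). CENPE, a kinetochore motor gene, read 8.16, 7.27 and 7.67 against 6.54, 6.54 and 5.98, and its difference was not called in 4 of the fits that left out 1 array.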

How the results depend on the processing

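None of the 222 called changes of named genes in the TIAR RIP turned its sign under an alternative that tested it. Of these, 176 kept their call throughout. Signs of named changes that were not called were not followed. In the TIAR RIP 1353 transcript clusters rose and 1256 fell. Array weights gave 2922 increases and 2563 decreases, and a fit without replicate 1 of stressed input and replicate 3 of unstressed G3BP1 gave 2561 and 2496. Median centring gave 1919 that fell and quantile normalization 2017. Leaving out 1 array gave 892 to 1935 that rose and 799 to 1866 that fell, lowest without replicate 3 and replicate 1 of the unstressed TIAR RIP and highest without unstressed G3BP1 replicate 3. Increases were 47.4% to 58.3% of the calls in all settings, beside 51.9% in the main one.

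For the difference from input, the 133 higher clusters became 1203 with array weights, 208 and 298 without the lowest 25% and 50% by signal, 594 without both arrays, and 14 to 674 with 1 array left out, lowest without unstressed TIAR replicate 2 and highest without unstressed G3BP1 replicate 3. The 11 lower ones became 269 with array weights, 40 with median centring, 63 with quantile normalization, 138 without both arrays and 1 to 60 with 1 array left out, with the same arrays at the extremes. For the difference from G3BP1, the 1112 higher ones became 3357 with array weights, 1712 with median centring, 1915 with quantile normalization, 2955 without both arrays and 844 to 2194 with 1 array left out, and the 1882 lower ones became 2992 with array weights. The causes were not tested.

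Deviations of same-numbered stressed and unstressed TIAR arrays correlated at 0.17, -0.07 and -0.09, and those of differently numbered arrays at -0.3 to 0.34. So few arrays cannot decide whether replicate numbers pair them, and the labels do not name the cultures. Same-numbered TIAR and input arrays of 1 treatment correlated at -0.34 to 0.12 and TIAR and G3BP1 arrays at -0.07 to 0.42, with 1 and 4 of 6 pairs over 0.1. With the replicate block 1192 clusters rose and 1118 fell in TIAR, and 47 were higher than in input. Signal near background cannot be told from absence, and 3 arrays per group leave small changes of variable genes uncalled.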

Other observations

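Of 53 histone genes 3 were called higher (5.66%, near the 6.15% of all genes) and 0 lower, with a median of -0.01. The counts were 7 higher and 1 lower without both arrays that stand apart, or 6 higher without unstressed G3BP1 replicate 3. H1-4, H2BC26 and H4C5 had changes of 0.34 ± 0.09, 0.42 ± 0.12 and 0.46 ± 0.14, and each lost its call in several fits without 1 TIAR array, so that 0 histone genes were called higher without stressed replicate 1 or 2 or unstressed replicate 2 or 3. Of 23 coiled-coil scaffolds of the centrosome and Golgi, 1 rose (AKAP9) and 2 fell. These are 4.35% and 8.7%, near the 6.15% and 7.15% of all genes, and the counts were 4 and 4 without both arrays that stand apart. Of these scaffolds 3 rose without stressed input replicate 1 or unstressed G3BP1 replicate 3, and 1 fell without any 1 TIAR array. GOLGA3, a golgin, read 7.94, 7.90 and 7.99 with arsenite and 8.56, 8.55 and 8.46 without. Of 3 nuclear and mitochondrial RNAs measured 0 were called (1 without both arrays that stand apart), MALAT1 among them (0.38 ± 0.29, adjusted p = 0.571), which in the G3BP1 RIP had 2.03.

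Within the groups, arrays did not take each place equally often. Unstressed replicate 3 was the lowest of its group for 55.3% of the genes that rose, 55.5% of those that fell and 42.9% of all genes. Stressed replicate 2 was the lowest of its group for 45.9%, 50.4% and 38.6%. Both arrays have an upper quartile of 9.42, the lowest of the 6, and the deviations of these arrays from their group means correlated at 0.34.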
